A study of Danio rerio with 4 samples.

Results

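The long arm of zebrafish chromosome 4 is described here from a gene-level count table of 4 RNA-seq libraries. Its members were all genes of the table on chromosome 4 whose lowest start lay above 30 Mb in the GRCz11 assembly. There were 1552 of them among 32520 genes, with starts from base 30045493 to base 78058635, and the 828 chromosome 4 genes at or below 30 Mb served as the comparison. The rule used position alone, but it was chosen with earlier results of these data known.

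The libraries were 2 of asxl1+/+ and 2 of asxl1-/- embryos at 3 days post fertilization (dpf), named A and B within each genotype. Each was made from a pool of about 20 tails, which contained the caudal hematopoietic tissue, from asxl1+/- intercrosses on the AB background, and none had received a treatment. The mutant line carries a CRISPR/Cas9 frameshift deletion that puts a premature stop late in the coding sequence. The study made 2 such alleles and states that its data are from the one with the longer deletion unless specified. The labels of these libraries do not name an allele. asxl1 encodes a chromatin regulator that acts with the BAP1 deubiquitinase on histone H2A. Pools hide differences between fish, and p-values between the genotypes measure only the spread between 2 pools a group.

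The long arm is an unusual stretch of the zebrafish genome. It replicates late in S phase, is rich in heterochromatin and repeats, and carries tandem copies of small nuclear RNA genes, C2H2 zinc finger genes and immune receptor genes. Near-identical copies make the reads of many members hard to place. The pairs of reads that mapped to several places, or to more than 1 gene, had been left uncounted by the authors.

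Library totals ran from 19423797 to 26281738 counts. The tissue label was checked on markers whose names could be matched: the muscle genes ckma and myhz2 summed to between 25809 and 28633 CPM (counts scaled to a common library total), the 3 epidermal genes krt4, cyt1 and krt5 to between 32472 and 35374 CPM, and the 2 lens genes crygm2d1 and cryba1b to at most 0.151 CPM. The 3 genes of the liver list summed to between 3594 and 4033 CPM, nearly all of it from the plasma protein genes apoa1b and tfa, while the liver gene fabp10a had 7 counts over the 4 libraries. The neutrophil genes npsn, srgn and lyz summed to 45.8 and 49.3 CPM in asxl1+/+ and 37.4 and 32.8 CPM in asxl1-/-. The pancreas gene prss1 stood at 1.99 and 7.19 against 0.61 and 0.25 CPM, while cela1.2, the other pancreas gene matched, had no count. The erythroid genes hbae1.1 and alas2 summed to between 24.9 and 34.4 CPM, and the macrophage gene marco ran from 4.88 to 6.97 CPM. For asxl1 itself, on chromosome 23, asxl1+/+ A had 1508 counts, asxl1+/+ B 1698, asxl1-/- A 1123 and asxl1-/- B 1145. The asxl1-/- libraries were the smaller ones. Scaled for this, the levels in the same order were 65.32, 65.25, 57.12 and 57.60 CPM, without overlap of the genotypes. The log2 fold change of asxl1-/- against asxl1+/+ was -0.19 (SE 0.08, edgeR quasi-likelihood adjusted p = 0.9999). The asxl1 count covers the whole gene and does not check a small deletion.

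The long arm held 4.77% of the genes and took a far smaller share of the counts. Its summed count was 32675 in asxl1+/+ A, 35910 in asxl1+/+ B, 28391 in asxl1-/- A and 26214 in asxl1-/- B. The share of the library was lowest in asxl1-/- B, at 0.131% (95% Wilson interval 0.129 to 0.132%), and highest in asxl1-/- A, at 0.146% (0.144 to 0.148%). These intervals cover counting error only. The rest of chromosome 4, with fewer genes, took between 1.28 and 1.32%.

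Many members had no count at all. Over the 4 libraries together, 616 members (39.7%) had a count of 0, 317 had 1 to 9 counts, 451 had 10 to 99, 143 had at least 100 but under 1000, and 25 had 1000 or more. A count of 0 over the 4 libraries allows up to 3 counts, which stand for 0.0338 CPM, where reads can be placed on a single gene. Reads that fitted several copies were not counted at any depth, and 405 of the 616 were small RNA genes. The 616 members were therefore not detected rather than shown to be silent. At least 1 count was found for 60.3% of the members, 82.9% of the genes on the rest of chromosome 4 and 83.8% of the genes elsewhere. A mean of at least 1 CPM was reached by 12.1% of the members, 57.9% of the rest of chromosome 4 and 57.99% of the other genes.

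Within a single library, a count was found for between 49.8 and 52.2% of the members and for between 77.5 and 78.9% of the genes on the rest of chromosome 4. The ranges did not overlap. The long arm was lower in 4 of 4 libraries, by 27.2 percentage points on average (SD 0.995, n = 4), in an exact two-sided sign-flip test over libraries with p = 0.13, which is the smallest p that 4 paired libraries allow. The gap to the other chromosomes was 26.3 points (SD 0.424, exact p = 0.13). The genes are fixed and only the libraries vary, so genes were not treated as replicates.

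The kinds of gene annotated there differed from the rest of the chromosome. Small RNA genes made up 419 of the 1552 members (27.0%), against 91 of 828 (10.99%) on the rest of chromosome 4. U1, the small nuclear RNA that recognises 5′ splice sites, had 182 gene copies in the table, and 148 of them (81.3%) lay on the long arm. U6, which sits in the catalytic centre of the spliceosome, had 303 copies, and 244 of them (80.5%) lay there. Neither had a copy on the rest of chromosome 4. Of these 392 U1 and U6 members, 8 had any count, and their counts summed to 27 over the 4 libraries. Values for such near-identical copies are uncertain, since a read that fits several copies was not counted, and the libraries had been made from poly-A selected RNA. The share of reads lost in either way was not tested.

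The other small RNA members were sparse as well. Of the 23 5S_rRNA members, 5 had a count, and 1 of the 3 5_8S_rRNA members had a single count. The small RNA member with the most counts, ENSDARG00000112072, had 9, 14, 8 and 3 counts in asxl1+/+ A, asxl1+/+ B, asxl1-/- A and asxl1-/- B. Over all small RNA members, 14 (3.34%) had a count, against 10 of 91 (10.99%) on the rest of chromosome 4 and 23.3% of the 2375 on other chromosomes. The regions hold different kinds of small RNA gene. U1 and U6 made up 392 of the 419 members, whereas 23 of the 1947 5S_rRNA genes lay on the arm. Of all 485 U1 and U6 genes in the table, 13 had a count.

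The gap in detection was narrower without the small RNA genes, but over the arm as a whole it did not close. Between 67.9 and 70.8% of the remaining 1133 members had a count in a library, against 86.3 to 87.9% on the rest of chromosome 4, a difference of -18.0 points (SD 1.32, n = 4, exact p = 0.13). Against other chromosomes it was -13.7 points (exact p = 0.13). Exonic length differed as well. The median member had 1041.5 exonic bases, against 1792.5 on the rest of chromosome 4, and 1626 against 1979 without small RNA genes. Among genes of at least 500 exonic bases the difference in detection was -16.5 points.

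Level was compared between genes only as CPM per kb of exonic length. The median member stood at 0.0276 CPM per kb and the median gene on the rest of chromosome 4 at 1.32 CPM per kb. Without small RNA genes the medians were 0.0691 and 1.85 CPM per kb, and the median of other chromosomes was 1.53 CPM per kb. These medians describe the annotation, in which 241 members share exonic bases with another gene, 80 of them with a gene on the opposite strand. Strand was not used in the counting, and pairs that fitted more than 1 gene were left uncounted. The exonic length still includes the shared bases, so the level per kb of such members can be too low. The size of this effect was not tested.

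**Figure D1:**
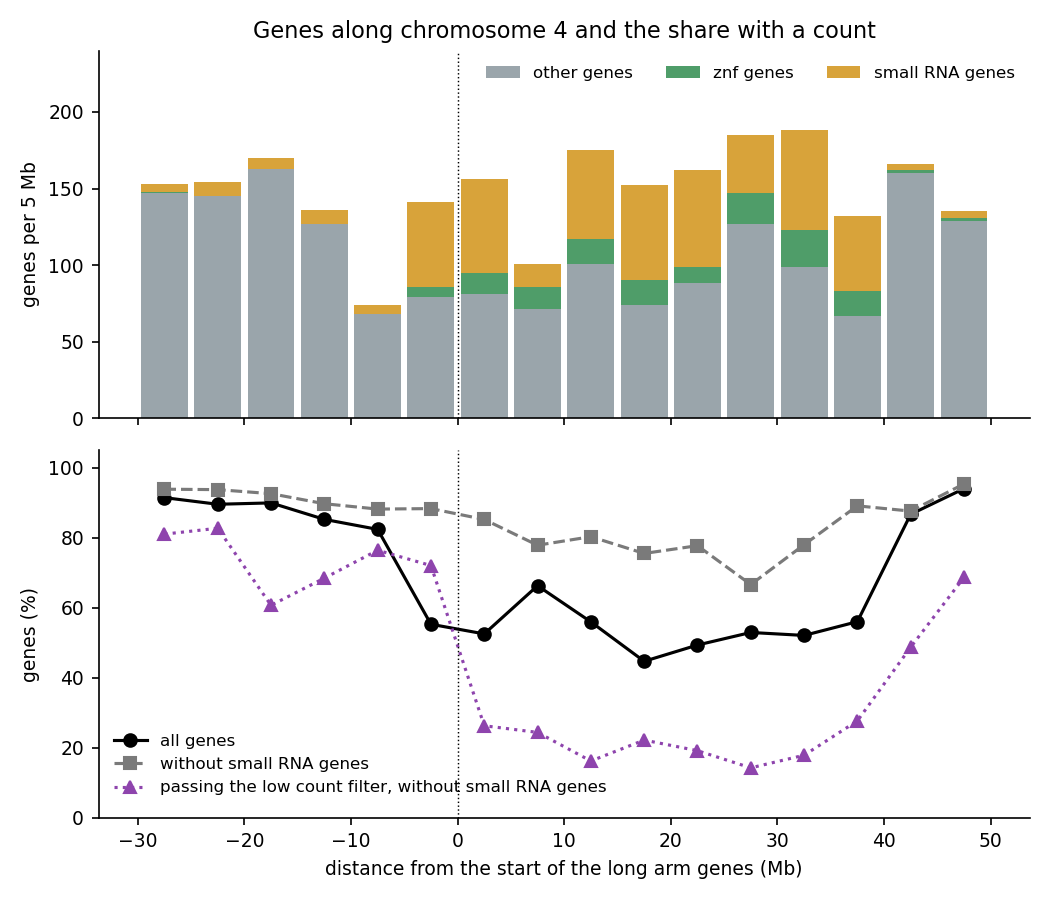
The upper panel gives the number of genes in each 5 Mb of chromosome 4, split into small RNA, znf and other genes, against the distance from the start of the long arm genes in Mb. The lower panel gives the percentage with a count in any library for all genes and without small RNA genes, and the percentage without small RNA genes that passed the low count filter, which falls from 72.1% in the last 5 Mb before the arm to 26.3% in its first 5 Mb.

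The summed level fell sharply from the last 5 Mb before the arm to its first 5 Mb. The share of small RNA genes and the share of genes with a count hardly moved, but the mix of the other genes changed. In the last 5 Mb before the arm, 55 of 141 genes (39.0%) were small RNA genes, and in its first 5 Mb 61 of 156 (39.1%) were. Genes with ordinary names, as described below, were 51 of the 141. On the arm, the member of this kind with the lowest start was crestin, at base 47257854. The share of genes with a count was 55.3% on the near side and 52.6% on the far side. The summed level, in contrast, was 1107, 1116, 1136 and 1148 CPM before the start in asxl1+/+ A, asxl1+/+ B, asxl1-/- A and asxl1-/- B. In the same order it was 40.7, 44.0, 40.7 and 41.6 CPM after it. All 4 libraries showed the same drop. Stretches of 5 Mb do not place it more finely, and the part of the changed gene mix in it was not tested. Genes at the boundary itself were low on both sides: si:rp71-7l19.2, the first member, had 4, 3, 5 and 5 counts, and the second, ENSDARG00000117382, had 17, 11, 15 and 16. Just outside, znf1128 had 17, 28, 10 and 10 counts and znf1111 had 12, 5, 5 and 9.

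Within the arm, a low stretch was followed by a distal stretch with more counts. The division at 70 Mb was chosen after the values were seen, so it is described without a test. From 30 to 70 Mb there were 1251 members (80.6%), which held 21.96% of the arm's counts. Above 70 Mb there were 301 members (19.4%), which held 78.0%. Without small RNA genes, the median level was 0.0493 CPM per kb in the first stretch and 0.279 CPM per kb in the second, both below the 1.15 CPM per kb of the 5 Mb just before the arm. Detection without small RNA genes differed as well. In a library, between 61.8 and 65.6% of such members had a count in the first stretch and between 84.6 and 85.7% in the second. The second range lay near the 86.3 to 87.9% of the rest of chromosome 4 and above the 82.3 to 83.6% of other chromosomes. Of the small RNA members 411 lay below 70 Mb and 8 above. Of the 136 znf members 132 lay below it.

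The members with ordinary gene names ran the other way. Only 55 members (3.54%) had a name outside the znf, TRIM, NLR, pim, small RNA and long noncoding RNA lists and the clone-based symbols, against 507 genes (61.2%) on the rest of chromosome 4, and 52 of the 55 lay above 70 Mb. Of the 55, 20 belonged to the ms4a17a and slco1 families and 35 did not. The 3 below it were crestin, a marker of the neural crest, with 11, 7, 6 and 6 counts, il17ra1b, with 10, 8, 0 and 2, and il17ra2, with none. The interleukin 17 receptor models share exonic bases, and pairs that fitted both were left uncounted, so the counts of both are uncertain.

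**Figure D2:**
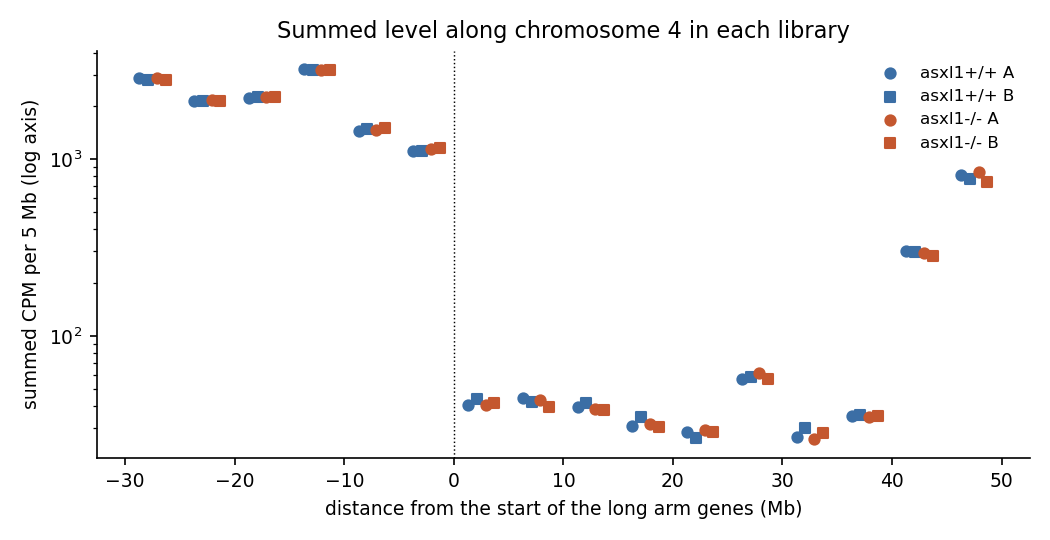
Summed CPM of the genes in each 5 Mb of chromosome 4 (log axis) against the distance from the start of the long arm genes in Mb, with 1 point per library. All 4 libraries sit between 1107 and 1148 CPM just before the arm and between 739 and 843 CPM in its last stretch.

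A few genes carried most of the arm's counts. The 2 members with the most counts held 16.4% of them, the 10 highest held 37.8% and the 20 highest held 50.9%, and 18 of those 20 lay above 70 Mb. The 10 members with the highest starts alone held 27.6%. A mean of 10 CPM or more was reached by 27 members, of which 25 lay above 70 Mb.

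The 3 highest mean levels per kb over the 4 libraries belonged to genes at the distal end. CCT2, at bases 78022547 to 78026285, carries the name of a subunit of the TRiC chaperonin, which folds actin and tubulin. It had 2574, 2718, 2113 and 2047 counts in asxl1+/+ A, asxl1+/+ B, asxl1-/- A and asxl1-/- B, and a mean of 107 CPM per kb. The neighbouring model cct2, at bases 78008298 to 78009682, had 832, 812, 712 and 662 counts. With 330 exonic bases against 994 in CCT2, it came to 104 CPM per kb. The models carry the same gene name, so reads may be divided between them. ckap4, at bases 77975221 to 77979432, encodes a membrane protein of the rough endoplasmic reticulum and had the most counts of any member: 3047, 3019, 2601 and 2123, or 63.1 CPM per kb. In CPM the libraries of all 3 genes overlapped between the genotypes.

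Several other named genes of the distal stretch were counted in every library too. RAB21, a small GTPase of endosomes, had 810, 840, 660 and 557 counts (25.9 CPM per kb). PACSIN2, a membrane-bending protein of endocytosis, had 1287, 1413, 1189 and 1085 counts (16.4 CPM per kb). NUP50, a nuclear pore component, had 903, 1044, 782 and 809 counts, and CPNE8, a calcium-dependent phospholipid-binding copine, had 961, 1137, 791 and 809. ptprb, a receptor tyrosine phosphatase of the endothelium, had 474, 568, 412 and 400 counts, and terfa, named for a telomere repeat-binding factor, had 403, 417, 329 and 252. In order of level per kb, CCT2 and cct2 lay within their spread over libraries, whereas ckap4 was below both and ms4a17a.11 below ckap4 in every library. ENSDARG00000115988 and ENSDARG00000115978, with means of 45.8 and 42.7 CPM per kb, ranked between ckap4 and ms4a17a.11. Their place was not steady, since both stood above ckap4 in asxl1-/- A.

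**Figure D3:**
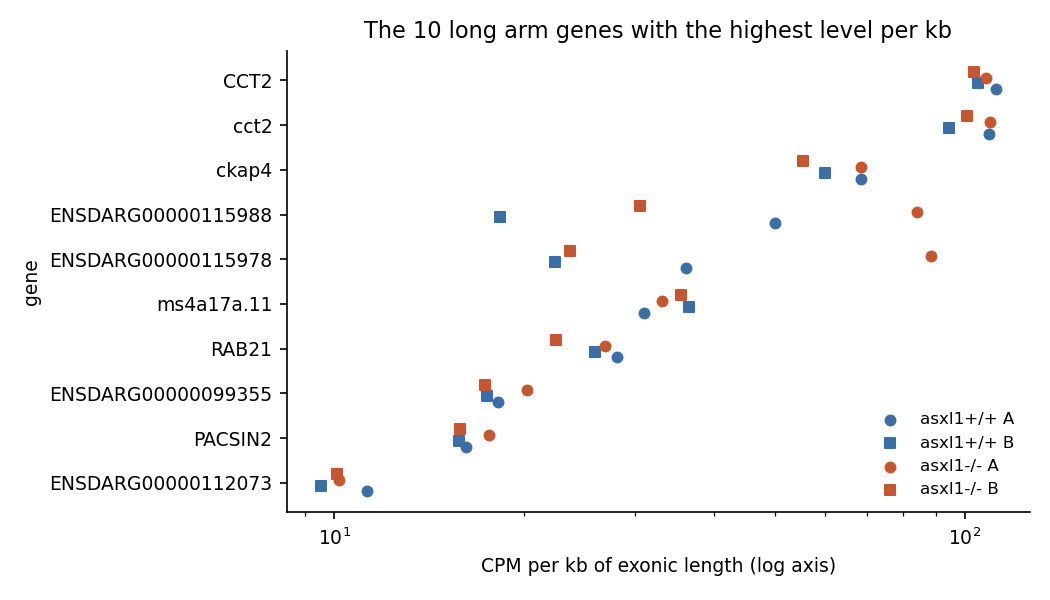
CPM per kb of exonic length (log axis) of the 10 long arm genes with the highest level, with 1 point per library. CCT2 and cct2 overlap near 107 and 104 CPM per kb, and the 2 genes beside a 5.8S rRNA gene, ENSDARG00000115988 and ENSDARG00000115978, are spread most widely, with asxl1-/- A highest.

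Among the expressed members were families in which 1 or 2 copies dominated. The ms4a17a genes, named for tetraspanning membrane proteins of the MS4A family, formed a run of 14 members between bases 76492691 and 76774721, and all 14 had a count. ms4a17a.11 had 664, 883, 603 and 655 counts and ms4a17a.9 had 516, 633, 503 and 478, and together they held 87.1% of the family's counts. The next, ms4a17a.7, had 74, 63, 76 and 73, and the lowest, ms4a17a.6, had 3, 0, 0 and 2. Read pairs that fit more than 1 copy were not counted, so the split between copies is uncertain. The summed family level was 58.8 and 65.8 CPM in asxl1+/+ and 65.1 and 66.4 CPM in asxl1-/-, ranges that overlapped.

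The slco1 genes, named for organic anion transporters, were more uneven still. Of 6 members 4 had a count, and slco1d1, with 428, 538, 402 and 382 counts, held 99.4% of the family's total. slco1f1 and slco1f4 had none, and slco1f2, slco1f3 and slco1e1 had at most 2 counts in a library. The family was not a single run: slco1f1 and slco1f4 lay between bases 72092423 and 72179937, and the others between bases 77286165 and 77432218. Here too, read pairs that fit more than 1 copy were not counted, so the split is uncertain.

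Among the families read from symbols, other than small RNA genes, the zinc finger genes named znf were the largest on the arm. C2H2 zinc finger proteins bind DNA, and members of this class are often repressors of transcription and of transposable elements. Of 315 znf genes in the table, 136 (43.2%) lay on the long arm, 8 on the rest of chromosome 4 and 171 elsewhere. Nearly all were detected, 129 of 136 on the arm and 170 of 171 on other chromosomes, but their levels differed widely. The median znf member stood at 0.118 CPM per kb, against 0.579 on the rest of chromosome 4 and 1.88 on other chromosomes. At least 1 CPM per kb was reached by 3 of 136 (2.21%) on the arm and 120 of 171 (70.2%) elsewhere. The genes elsewhere were a mixed group. After seeing the data, the comparison was limited to znf genes numbered 970 or more, which were 135 of the 136 on the arm and 61 of the 171 elsewhere. Their medians were 0.121 and 0.912 CPM per kb, and the other 110 elsewhere had a median of 3.09 CPM per kb. Among the numbered genes, 3 of 135 (2.22%) on the arm and 28 of 61 (45.9%) elsewhere reached 1 CPM per kb, and the medians of single libraries ran from 0.0878 to 0.116 on the arm and from 0.866 to 0.956 elsewhere.

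The difference in znf level went the same way in every library. Over all znf genes the median ran from 0.0872 to 0.115 CPM per kb on the arm and from 1.88 to 1.91 elsewhere, lower on the arm in 4 of 4 libraries (exact two-sided sign-flip test, p = 0.13, the smallest possible). Median exonic length was 1643.5 bases on the arm and 2452 elsewhere, and the level is already per kb. Reads shared between similar copies were not counted, and their part in this difference was not tested. The highest znf member by level and by counts was znf1141, at bases 51160367 to 51173586, with 66, 69, 61 and 74 counts and 1.64 CPM per kb. znf1185 followed in counts, with 59, 46, 33 and 47.

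**Figure D4:**
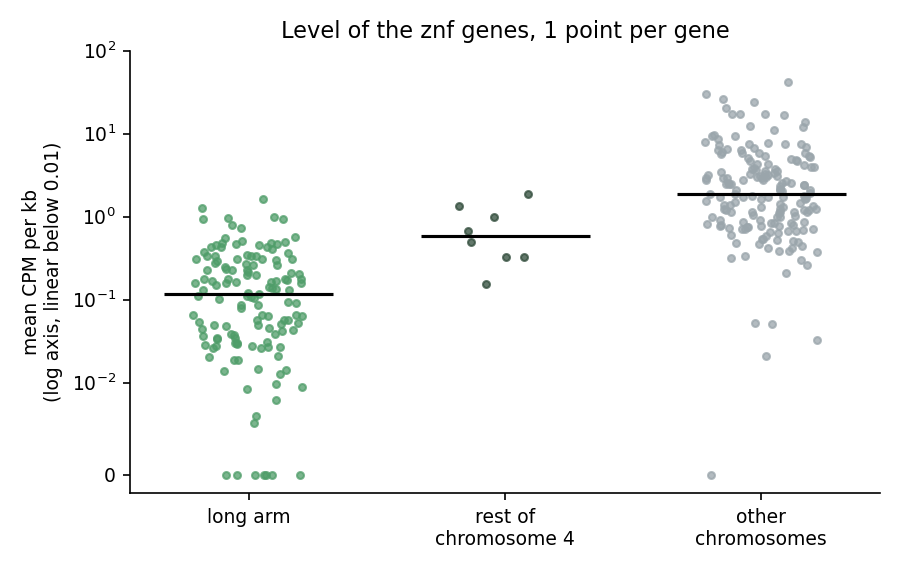
Mean CPM per kb of each znf gene (log axis, linear below 0.01) on the long arm, the rest of chromosome 4 and other chromosomes, with 1 point per gene and a line at the median. The medians are 0.118, 0.579 and 1.88 CPM per kb, and 3 of the 136 long arm genes reach 1 CPM per kb.

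Other families were small when read from symbols. Most members carried clone-based symbols (691, or 44.5%) or no symbol (234, or 15.1%), and no function was given for them in the tables used. The clone-based group held 37.4% of the arm's counts, and its highest gene, ENSDARG00000099355, at bases 57104534 to 57109978, had 685, 742, 647 and 561 counts (18.3 CPM per kb). It stood far above its neighbours in the low stretch, as did ENSDARG00000099152, with 443, 425, 348 and 346. In the distal stretch, si:dkey-165o8.2 had 450, 463, 370 and 299 counts, and ENSDARG00000112073, which shares exonic bases with another gene, had 277, 264, 213 and 214.

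The 3 TRIM members were led by trim24, a chromatin reader and co-regulator of transcription, with 309, 297, 214 and 194 counts, followed by ftr51 of the fish-specific TRIM family with 56, 58, 44 and 44. The 2 members named as NLR genes, which belong to a class of cytosolic immune sensors, had little: nlrp12l2 had 6, 10, 6 and 2 counts and nlrc3l2 had 1, 1, 1 and 3. The single pim kinase-like member had none, and no member carried a histone symbol. Long noncoding RNA genes numbered 11, of which 5 had a count. The highest, si:dkeyp-80d11.1, had 9, 16, 13 and 7 counts, and si:zfos-2131b9.2 had 5, 5, 5 and 3.

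Short members without a symbol beside a 5_8S_rRNA gene varied widely between libraries. ENSDARG00000115978, at bases 77561226 to 77561679, had 361, 252, 752 and 203 counts, and ENSDARG00000115988, at bases 77557112 to 77557279, had 194, 80, 278 and 102. In both genes asxl1-/- A was the highest library and asxl1+/+ A the next. Both lie within 5 kb of a 5_8S_rRNA gene. Of the 18 members within that distance of such a gene, 4 had a count: 1 of the 5_8S_rRNA genes, with a single count, and 3 genes beside that copy. The third of these genes, ENSDARG00000113671, had 14, 6, 18 and 6 counts. In CPM, asxl1-/- A was again its highest library and asxl1+/+ A the next. The summed level of the 18 members was 24.6 CPM in asxl1+/+ A, 13.03 in asxl1+/+ B, 53.3 in asxl1-/- A and 15.6 in asxl1-/- B, or between 0.944 and 3.69% of the arm. The part of ribosomal RNA reads in these values was not tested.

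The study compared asxl1-/- with asxl1+/+ tails to find the genes whose expression differs in the mutants. In the main test used here, which was not the study's, no member of the long arm was called. Of the 1552 members, 339 (21.8%) passed the filter on low counts, against 540 (65.2%) on the rest of chromosome 4. In edgeR's quasi-likelihood test, with p-values adjusted over all 19970 genes tested, 0 of the 339 had an adjusted p below 0.05, while 0.0601% of all tested genes did. At an unadjusted p below 0.05 there were 10 members (2.95%), 2 higher and 8 lower in asxl1-/-. Of all tested genes 616 (3.08%) were, 322 higher and 294 lower. DESeq2 called none (0.135% of all genes), with 2 members (0.590%) at an unadjusted p below 0.05 against 0.936% of all genes. edgeR's exact test called 1 (0.265% of all genes), with 16 members (4.72%) at an unadjusted p below 0.05 against 2.78% of all genes. The study names this test, but reports more genes with it than the 53 called in all here. The 1 call is therefore not the study's result for the arm.

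The fitted differences of the members were spread around 0. Their median log2 fold change was -0.03, against 0.00 for all genes, with 148 above and 191 below 0. Without overlap of the libraries, 45 members (13.3%) were higher and 66 (19.5%) lower in asxl1-/-, where 15.4% and 14.6% of all tested genes were. Precision was limited: the median standard error of a member was 0.33 on the log2 scale, against 0.15 over all genes, and 151 of the 339 had a mean below 1 CPM.

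The level of the arm as a whole overlapped between the genotypes. Its summed level was 1415 and 1380 CPM in asxl1+/+ and 1444 and 1319 CPM in asxl1-/-, a log2 difference of -0.02 (exact two-sided permutation test, p = 1, where 2 against 2 libraries cannot go below 0.33). In bulk tails, fewer cells and less RNA per cell cannot be told apart. Without the members near 5_8S_rRNA genes the sums were 1391 and 1367 CPM against 1391 and 1303 CPM. A count was found for 51.4 and 52.2% of the members in asxl1+/+ and for 49.8 and 50.5% in asxl1-/-, but the asxl1-/- libraries were also the smaller ones. With all libraries thinned to 19423797 counts, the difference went from -1.61 to -0.354 points (exact permutation test, p = 0.667).

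The summed level of the znf members overlapped between the genotypes as well. It was 48.5 and 52.3 CPM in asxl1+/+ and 50.1 and 53.7 CPM in asxl1-/- (exact permutation test, p = 0.667). Single tested members did not all overlap: 12 were higher and 7 lower in asxl1-/-, where 15.4% and 14.6% of all tested genes were. Of the 42 tested, none had an adjusted p below 0.05 in edgeR's quasi-likelihood test or an unadjusted p below 0.05, and 26 had a fold change above 0 and 16 below, with a median of 0.12. Of the other named genes 34 were tested and none passed either, with a median of -0.003. The 3 TRIM members had a median of -0.06, and trim24 had a log2 fold change of -0.26 (SE 0.14, edgeR adjusted p = 0.9999).

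**Figure D5:**
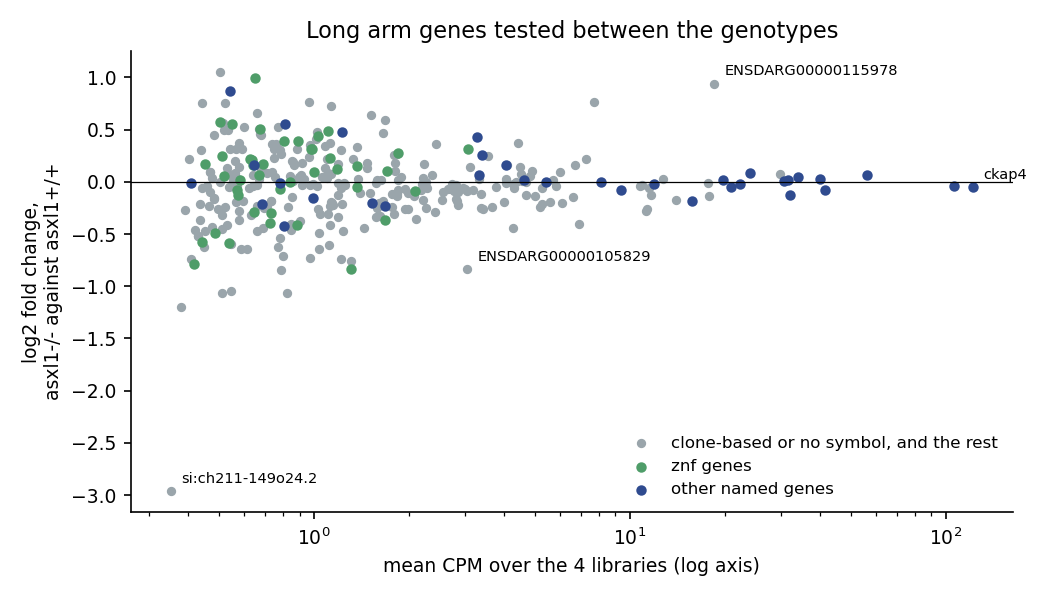
Log2 fold change of asxl1-/- against asxl1+/+ for the 339 long arm genes tested, against their mean CPM over the 4 libraries (log axis), 1 point per gene. No gene had an adjusted p below 0.05, and the fold changes range from -2.97 to 1.05.

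Of the 188 members with a mean of at least 1 CPM, 56 (29.8%) did not overlap between the genotypes, against 29.7% of all tested genes at that level, and the 10 with the largest fold changes are given here as values. ENSDARG00000105829, at bases 72500840 to 72513569, had 109 and 81 counts in asxl1+/+ and 55 and 31 in asxl1-/-, a log2 fold change of -0.84 (SE 0.30, edgeR adjusted p = 0.9999). znf1009 had 44 and 38 counts against 26 and 11 (-0.84). si:dkey-262g12.13 had 31 and 44 against 21 and 15 (-0.74). Lower values were also found for si:dkeyp-35e5.5, with 30 and 32 against 16 and 16, and ENSDARG00000104407, with 33 and 33 against 20 and 15. In CPM the genotypes of these 5 genes did not overlap. ENSDARG00000105829 and znf1009 were the 2 of the 10 whose fold change moved by over 1.5 times with a library left out. That of ENSDARG00000105829 was -0.52 without asxl1+/+ A, -1.32 without asxl1-/- A and -0.48 without asxl1-/- B. That of znf1009 was -1.59 without asxl1-/- A and -0.34 without asxl1-/- B.

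The other 5 members had values on the higher side. Apart from ENSDARG00000105829, with 276 counts over the 4 libraries, all 10 genes had few counts, between 89 and 146. si:ch211-223g7.6 had 16 and 26 counts in asxl1+/+ and 25 and 31 in asxl1-/-, a log2 fold change of 0.73 (SE 0.33, edgeR adjusted p = 0.9999). si:cabz01069020.1 had 28 and 30 against 34 and 39 (0.64), and si:cabz01015815.4 had 27 and 39 against 41 and 39 (0.59). znf1065 had 22 and 23 against 28 and 23 (0.49), and zgc:173624 had 19 and 23 against 25 and 22 (0.47). All 10 genes had an edgeR adjusted p of 0.9999.

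The gene with the smallest adjusted p lay outside that rule and was picked out after its values were seen. si:ch211-149o24.2, at bases 66618956 to 66621983, had 14 and 17 counts in asxl1+/+ and 0 and 3 in asxl1-/-, so the genotypes did not overlap. Its log2 fold change was -2.97 (SE 0.76, edgeR quasi-likelihood adjusted p = 0.757), and edgeR's exact test gave an adjusted p of 0.0207. Its mean was 0.353 CPM. Without asxl1-/- A its log2 fold change was -2.02 (adjusted p = 0.9998). Without asxl1-/- B, which leaves 1 asxl1-/- library whose spread is assumed to be that of the others, the quasi-likelihood test called 3 members, where it called 0.356% of all genes: this gene (adjusted p = 0.0463, with the remaining asxl1-/- library at 0, so that its fitted fold is not given), ENSDARG00000115978 (adjusted p = 1.23e-10) and ENSDARG00000115988 (adjusted p = 0.000432). The last 2 are among the genes beside the 5_8S_rRNA copy, in which asxl1-/- A stood highest. With all 4 libraries their log2 fold changes were 0.94 (SE 0.46) and 0.76 (SE 0.47), and without asxl1-/- A they were -0.30 and -0.14. In CPM, ENSDARG00000115978 was at 15.6 and 9.68 in asxl1+/+ A and B and at 38.3 and 10.2 in asxl1-/- A and B, and ENSDARG00000115988 was at 8.40 and 3.07 and at 14.1 and 5.13. The genotypes overlapped, and at each letter asxl1-/- was the higher.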

How the data were processed

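The authors aligned the reads with STAR to GRCz11 and counted read pairs per Ensembl 96 gene with featureCounts 1.6.4, without strand, leaving out pairs that mapped to several places or to more than 1 gene. The deposited values were raw counts. CPM used TMM-scaled library sizes, and level per kb divided CPM by the exonic length in the table. Totals were 19423797 to 26281738 counts. Genotypes were compared with edgeR 4.0.16 (quasi-likelihood, filterByExpr, Benjamini-Hochberg adjustment over all genes tested), checked on simulated data. The exact test that the study names, run anew here, DESeq2 1.42.0, other filters and single libraries left out were alternatives. Regions were compared by exact sign-flip tests over libraries.

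Gene names came from a symbol table, which had an entry for 29201 of the 32520 IDs. RefSeq gene types (GRCz12tu) could be matched to 191 members by symbol. Lists rest on symbols and these types, since no protein products or sequences were used here. The members and lists were chosen with earlier results of these data known. Named genes were those with an adjusted p below 0.05, the 10 highest in CPM per kb, the 10 with the largest fold change among those that averaged 1 CPM or more and did not overlap between genotypes, the nearest on each side of 30 Mb, and the 2 with the most counts in each list. crestin, the il17ra genes, NUP50, CPNE8, ptprb, terfa, the other ms4a17a and slco1 genes and si:ch211-149o24.2 were named after their values were seen. R 4.3.3 and Python 3.11.15 were used.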

Additional observations from a re-analysis of the deposited data

How the results depend on the processing

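The lower share of detected members kept its direction under every alternative run, from -16.5 points (exonic length of at least 500 bases) to -35.1 points (30 to 70 Mb alone, chosen after seeing the data). None of these alternatives took the stretch above 70 Mb alone. The count of called members was 0 with DESeq2, with library size alone, with both other filters and at an adjusted p of 0.01, 1 with edgeR's exact test, 4 with a replicate block on the letters (301 genes in all, 1.51%), and 0 to 3 with 1 library left out. The labels do not say that a letter marks shared material, and same-lettered libraries deviated together with a correlation of 0.27. With 2 libraries a genotype, swapping the letters in 1 genotype would only reverse the sign of this correlation, so it does not show pairing. The block also leaves fewer degrees of freedom to estimate the spread. The 4, with their edgeR adjusted p under the replicate block, were si:ch211-149o24.2 (0.00720), ENSDARG00000105829 (0.00686), ENSDARG00000115988 (2.35e-05) and ENSDARG00000115978 (1.11e-15). The log2 difference in summed level was 0.0079 with the arm starting at 25 Mb, and -0.084 to 0.047 with 1 library left out. The median level was 0.0691 CPM per kb without small RNA genes. The cause was not tested. Of 29 named fold changes, none called, si:dkeyp-80d11.1 turned to 0.0038 (DESeq2) and 0.0032 (library size alone). With 1 library left out, 13 fold changes took either sign: ENSDARG00000099152 (-0.128 to 0.104), ENSDARG00000099355 (-0.043 to 0.178), si:dkeyp-80d11.1 (-0.520 to 0.377), ENSDARG00000112073 (-0.152 to 0.090), si:dkey-165o8.2 (-0.308 to 0.015), ms4a17a.11 (-0.093 to 0.146), znf1185 (-0.355 to 0.194), ENSDARG00000115988 (-0.145 to 1.644), ENSDARG00000115978 (-0.304 to 1.6003), PACSIN2 (-0.010 to 0.137), ckap4 (-0.214 to 0.094), cct2 (-0.052 to 0.155) and CCT2 (-0.083 to 0.010). Reads from repeated copies and counts below the floor limit what can be seen.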
